A study of Mus musculus with 36 samples.

Results

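In the left ventricle of CUG960 mice, 75 of the 55291 genes in the deposited tables moved back toward their repair level further after MBNL1 delivery than after MBNL2 delivery. They were chosen by measured values. TPM is a level per transcript length and library size. Means of log2(TPM + 1) were taken over the 3 ventricular libraries of each cohort, and the repair distance D of a gene was its +/-dox mean minus its +dox mean. A gene passed the criteria on D where D was at least 0.58 in size, the libraries of both cohorts did not overlap and the higher of both mean levels was at least 1 TPM, which left 654 genes. For an MBNL cohort, the percentage of D is its mean minus the +dox mean, as a share of D, so that +dox lies at 0% and +/-dox at 100%. The 75 members had a percentage at least 30 points higher in the MBNL1 than in the MBNL2 cohort, an MBNL2 percentage below 50% and an MBNL1+MBNL2 percentage of at least 50%. They are 11.5% of the 654 genes, and 62 of them were higher in +dox than in +/-dox ventricles and 13 lower. The mirror rule, with MBNL1 and MBNL2 exchanged, was met by 25 genes, 22 of them lower in +dox. Both counts are on TPM, and the directions of the members depended on that scale, as given below.

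All 6 cohorts, controls included, were of the genotype TREDT960I (Hom)/ MHCrtTA (Hem), in which a cardiomyocyte promoter drives the activator of an RNA with 960 interrupted CUG repeats in the context of human DMPK. Mice of the +dox cohort had received doxycycline (dox), which turns the repeat RNA on, from postnatal day 1, +/-dox mice were taken off it at 9 weeks of age, and -dox mice never had it. MBNL1, MBNL2 and MBNL1+MBNL2 mice stayed on dox and were injected at 9 weeks with AAV9 vectors for tagged human MBNL cDNAs under a heart-specific promoter, and hearts of all cohorts were taken at 21 weeks. The left ventricle and the atria came from the same animals, 3 per cohort, which gave 36 libraries. Libraries of mice given a control vector were not analysed here, so the MBNL proteins and the vector cannot be told apart in comparisons with +dox mice, while both cohorts of the MBNL1 and MBNL2 comparison had a vector.

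MBNL proteins are zinc finger proteins that bind RNA at short motifs with a GC core flanked by pyrimidines. They control alternative splicing and polyadenylation in the nucleus and the localization and decay of mRNAs in the cytoplasm, often through sites in 3′ UTRs. In myotonic dystrophy type 1 the expanded CUG repeats hold MBNL proteins in nuclear foci, and in heart the lost activity reverts many splicing events to a fetal pattern. MBNL1 and MBNL2 have closely similar RNA binding domains and overlapping targets.

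To show what such letters look like in the members, the stretch of 30 bases with the most matches was read from the first 500 bases of the 3′ UTR, in the 4 members that kept their place whichever single library was left out and in the member with the most matches. Matches to TGCT or to TGCC, and to the pair that begins with C instead, namely CGCT or else CGCC, on the transcribed strand are in capitals, overlaps included, and the sequences are from GRCm38 with GENCODE M21 transcripts.
Cdnf, chr2:3524225-3524254, plus strand: tTGCCtttgcatTGCTatgacaataaTGCT
Kbtbd12, chr6:88547399-88547428, minus strand: ccTGCTcTGCTgggactcaagagtacTGCC
Retsat, chr6:72607557-72607586, plus strand: ttgaTGCCtcatgaagaaTGCTcccaTGCC
Txndc12, chr4:108861867-108861896, plus strand: cggaacccctgCGCCCGCCcacccttTGCT
Ubtd1, chr19:42034041-42034070, plus strand: ggcccagtccTGCCGCCttccagTGCTGCT
In the whole window of 500 bases, Cdnf and Kbtbd12 had 11 matches each, as many as or more than which were found in 13.7% of the 10253 tested genes with such a window, and Retsat and Txndc12 had 7, a number reached by 49.0%. Ubtd1, chosen for its count, had 21, which 0.176% of genes reached. Its window was 63.2% G and C, beside a median of 46.4% in all tested genes. A stretch of 30 bases with at least as many matches as that of Ubtd1 was found in 6.11% of genes. For Cdnf, Kbtbd12, Retsat and Txndc12 that share was 28.9%. The median was 7 in the 53 members with a full window, 7 in the 284 other genes that passed the criteria on D and 6 in all tested genes, so the count of these letters in this window was alike in members and in the genes they were chosen from. A match is a description of the letters and not a binding site.

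The members comprise 63 protein coding genes, 4 lincRNAs, 3 antisense transcripts and 4 pseudogenes, and 1, Mfsd4b3-ps, had no model in GENCODE M21. An expressed gene on the other strand overlapped 18 members, among them the antisense transcript Sp3os and its partner Sp3, and 4 overlapped one on the same strand, such as Txndc12 and Kti12. How RSEM was set for strand is not given in the sources used here, so reads of such pairs may be shared. The higher cohort mean of a member was between 1.03 and 221 TPM, with a median of 7.19, and 30 members were below 5 TPM. The size of D ran from 0.591 to 2.84 with a median of 0.75 on the log2(TPM + 1) scale, which understates changes of low genes.

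Libraries held 57775002 to 97091184 expected counts in the ventricle and 55031987 to 85783989 in the atria. Summed atrial markers were at 98.1 to 1020 TPM in ventricular and 40776 to 62272 TPM in atrial libraries, so the tissue labels held. Xist was at 13.6 TPM or more in replicate 3 of every cohort except MBNL1+MBNL2, in both tissues, and at 0.15 TPM or less in the others, so sex goes with the replicate number. Library names fall into a pair of runs of numbers, set A with replicates 1 and 2 of every cohort but MBNL1+MBNL2, and set B with the rest, so set and sex cannot be told apart except in MBNL1+MBNL2 mice. Ventricular MBNL1 replicate 1 listed 16885 genes above 0, against 20578 to 24041 in the other ventricular libraries, and stands apart. The tables list mouse genes. Ventricular Mbnl1 was at 49.3, 44.9 and 54.7 TPM in +dox and at 68.1, 56.4 and 61.8 TPM in MBNL1 mice, and Mbnl2 was at 99.0, 93.4 and 108 TPM in +dox and at 174, 127 and 152 TPM in MBNL2 mice. Dmpk, the mouse gene, was at 252 to 286 TPM in +dox and 267 to 286 TPM in +/-dox ventricles.

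The members' place along D in each ventricular library is given as a description, since these values chose them. In the MBNL1 cohort the median member stood at 69.4% of D (range 26.7% to 164%), in the MBNL2 cohort at 25.3% (-25.4% to 49.7%) and in the MBNL1+MBNL2 cohort at 65.9% (50.1% to 114%). In the 579 other genes that passed the criteria on D, the medians were 57.2%, 54.3% and 61.1%. The low MBNL2 values of the members follow from the rule's limit of 50%. The -dox cohort, which the rule did not use, stood at 104% in members and 93.7% in the other genes.

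**Figure D1:**
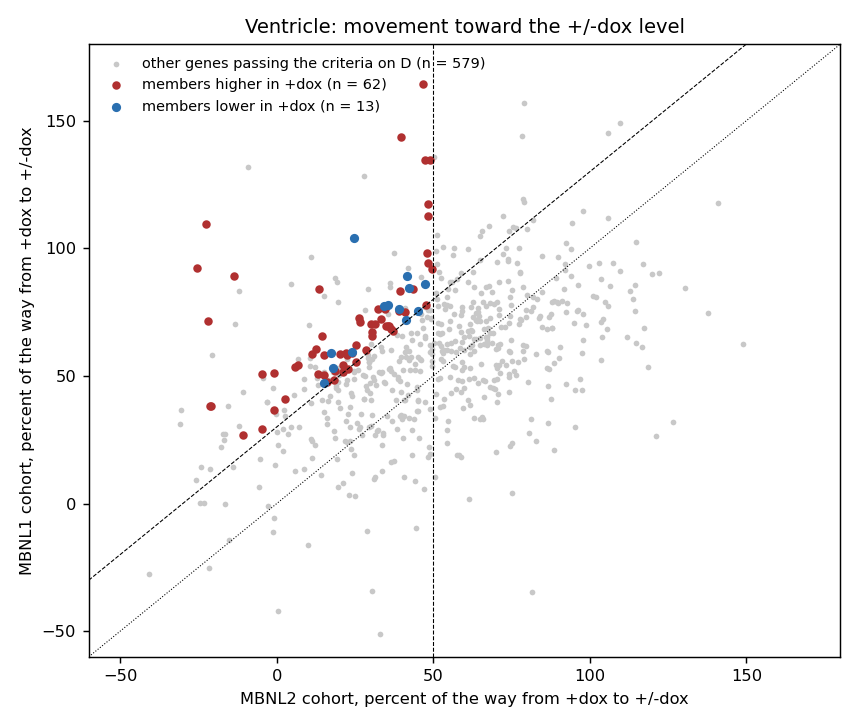
Percentage of the distance from +dox to +/-dox covered in the MBNL1 cohort (vertical axis) against that in the MBNL2 cohort (horizontal axis), for the 654 ventricular genes that passed the criteria on D, except 3 that lie beyond the axes. The dashed lines are the rule's limits of 50% for MBNL2 and 30 points between the cohorts, the dotted line marks equal values, and members (red, higher in +dox, and blue, lower in +dox) also had to reach 50% in the MBNL1+MBNL2 cohort, which is not drawn.

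Within the MBNL1 cohort the members' medians were 88.1%, 60.2% and 54.7% in replicates 1, 2 and 3, and replicate 1 was the library farthest toward +/-dox in 54 of the 75 members. In the other 579 genes the medians were 55.5%, 59.8% and 57.1%, so members stood above them in replicate 1 and close to them in replicates 2 and 3. In the MBNL1+MBNL2 cohort the members' medians were 99.1%, 51.9% and 55.3%, and replicate 1 was farthest in 58. The other 579 genes stood at 84.7%, 58.2% and 43.0% there, so replicate 1 was highest in them too. The members' medians were alike in the MBNL2 libraries, at 29.6%, 26.3% and 21.9%. Their library medians were -10.9%, 1.66% and 7.51% in +dox, 105%, 105% and 88.8% in +/-dox and 107%, 99.1% and 95.4% in -dox mice. By library median, all 9 libraries of the MBNL1 and MBNL2 cohorts and of +dox lay in the order +dox, MBNL2, MBNL1. The rule's limits favoured this order, since it used these libraries. The height of the MBNL1 and MBNL1+MBNL2 means leaned on 1 library each. Without MBNL1 replicate 1 the median member stood at 55.9% in the MBNL1 cohort, and the rule found 48 genes, 40 of them among the 75. Of those 40, 29 are from the 62 members higher in +dox and 11 from the 13 lower. Without MBNL1+MBNL2 replicate 1 it found 41 genes, 39 of them among the 75, and without both libraries 26, of which 20 are members. Within set A the median member stood at 71.1% in the MBNL1 and 26.4% in the MBNL2 libraries, with MBNL1 farther in 75 of 75, and within set B, with 1 library a cohort, at 54.1% and 18.9%, with MBNL1 farther in 65. Nothing is read from these counts, since the same libraries chose the members. Over the 15 ventricular libraries that the rule used, left out in turn, 4 members were kept every time (Cdnf, Kbtbd12, Retsat and Txndc12), 62 at least 10 times, and Cyp4f16, a cytochrome P450, the fewest times, 6.

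**Figure D2:**
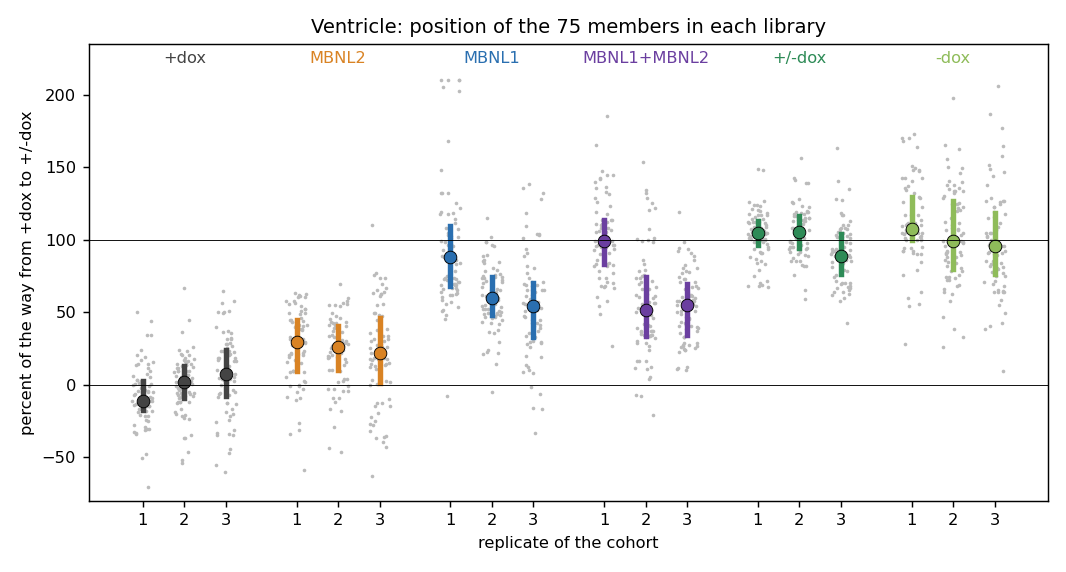
Percentage of the distance from +dox to +/-dox at which each of the 75 members stood in each ventricular library, with library medians (circles) and quartiles (bars), by cohort and replicate number. In grey are the single members, with 4 points drawn at the edge of the plot, and the library medians of MBNL1 replicate 1 (88.1%) and MBNL1+MBNL2 replicate 1 (99.1%) lie above those of the other replicates of their cohorts.

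The count of members in each direction depended on the scale. On TPM, the median of 12284 genes in MBNL2 ventricles lay 0.11 log2 units above +dox, while in the other cohorts it lay within 0.042 of +dox. On CPM, counts scaled to library size with TMM normalization, the MBNL2 shift was -0.01. With CPM in place of TPM the rule found 77 genes, and 38 of these (49.4%) were higher in +dox, against 62 of 75 (82.7%) on TPM. A higher MBNL2 level raises the MBNL2 percentage of genes lower in +dox and lowers that of genes higher in +dox. The mirror rule was applied on TPM only, and whether its count and directions hold on CPM was not tested. The 29 genes found on both scales were 17 higher and 12 lower in +dox, and the 12 are all lower members except the pseudogene Gm13071. Of the members kept on TPM whichever library was left out, Cdnf, Kbtbd12 and Retsat met the rule on CPM. Txndc12 did not, at 77.9% in MBNL1 and 52.7% in MBNL2 mice. The 75 members themselves stood at medians of 71.9%, 33.1% and 67.7% of D on CPM in the MBNL1, MBNL2 and MBNL1+MBNL2 cohorts. MBNL1 was farther than MBNL2 in 74 of them, the exception being Iqcc. The rule used the same libraries, so nothing is read from that count. Of the 75, 9 failed the criteria on D, and of the rest 31 had a difference under 30 points and 17 an MBNL2 value of 50% or more.

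**Figure D3:**
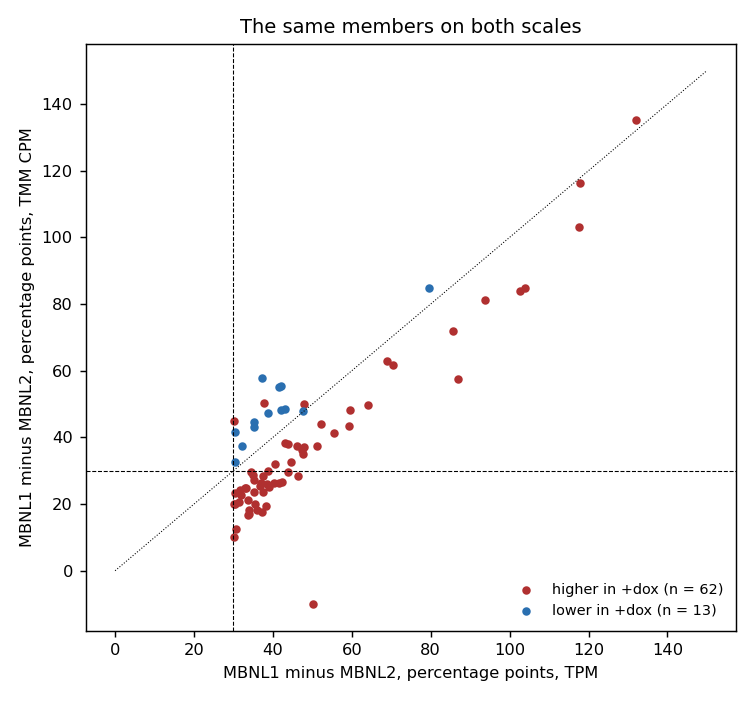
Difference between the percentages of D of the MBNL1 and MBNL2 cohorts for the 75 members, on TPM (horizontal axis) and on TMM-normalized CPM (vertical axis), in percentage points. The dashed lines mark 30 points and the dotted line equal values, and the 13 members lower in +dox (blue) all lie above 30 points on both scales, while members higher in +dox (red) lie on both sides of it on CPM, with Iqcc below 0.

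The 13 members that were lower in +dox ventricles had median percentages of 76.3% in the MBNL1, 35.7% in the MBNL2 and 80.1% in the MBNL1+MBNL2 cohort. Cdnf, a factor that resides in the endoplasmic reticulum and is related to the neurotrophic protein Manf, had the largest D. It was at 1.1, 0.95 and 1.28 TPM in +dox, 5.17, 3.15 and 3.23 in MBNL2, 14.5, 10.02 and 9.59 in MBNL1, 17.8, 10.5 and 9.75 in MBNL1+MBNL2, and 14.2, 14.5 and 13.6 TPM in +/-dox ventricles. No library of the +dox, MBNL2 and MBNL1 cohorts overlapped another cohort in this order, and the percentages of D were 41.5% for MBNL2 and 89.1% for MBNL1 (83.0% without replicate 1).

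Kcnv2 encodes a silent subunit that modifies voltage-gated potassium channels. Its levels were 0.73, 0.95 and 1.77 TPM in +dox, 2.68, 2.88 and 2.5 in MBNL2, 4.64, 4.55 and 4.51 in MBNL1 and 8.07, 7.04 and 6.45 TPM in +/-dox ventricles, again with no overlap between successive cohorts. Kbtbd12, of the kelch and BTB domain family, was at 9.41, 8.43 and 10.9 TPM in +dox, 13.8, 11.1 and 11.4 in MBNL2, 17.96, 16.5 and 16.2 in MBNL1 and 25.7, 25.1 and 23.7 TPM in +/-dox ventricles. Retsat, the retinol saturase, was at 17.6, 20.3 and 17.3 TPM in +dox, 28.1, 26.8 and 21.0 in MBNL2, 42.6, 36.7 and 30.2 in MBNL1 and 48.4, 44.2 and 39.3 TPM in +/-dox ventricles. In both genes the +dox, MBNL2 and MBNL1 cohorts did not overlap. MBNL1+MBNL2 ventricles, also on dox, overlapped MBNL1 ventricles, at 15.3 to 23.6 TPM for Kbtbd12 and 28.7 to 49.1 TPM for Retsat. The highest library of each MBNL cohort was replicate 1.

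Corin, the protease that activates pro-ANP, overlapped between MBNL2 and MBNL1. It was at 19.5, 22.6 and 30.4 TPM in +dox, 27.9, 24.1 and 28.8 in MBNL2, 38.2, 27.9 and 36.8 in MBNL1 and 51.4, 44.5 and 43.6 TPM in +/-dox ventricles. For Lrrc2, a leucine-rich repeat protein, +dox replicate 3 (41.8 TPM) stood level with all MBNL1 libraries (42.7, 42.5 and 41.1 TPM), and the other +dox libraries were at 28.8 and 23.9 TPM. Acad11, an acyl-CoA dehydrogenase, was at 34.3, 34.0 and 42.5 TPM in +dox, 48.7, 48.2 and 49.5 in MBNL2 and 62.0, 58.4 and 56.8 TPM in MBNL1 ventricles. It was not kept without MBNL1 replicate 1, where its MBNL1 percentage was 71.3%. Vwa8, a mitochondrial ATPase, had a small D (0.59) and stood at 76.3% in MBNL1 and 39.1% in MBNL2 mice. The processed pseudogene Gm13071, at 47.3% and 15.1%, overlapped between those cohorts.

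**Figure D4:**
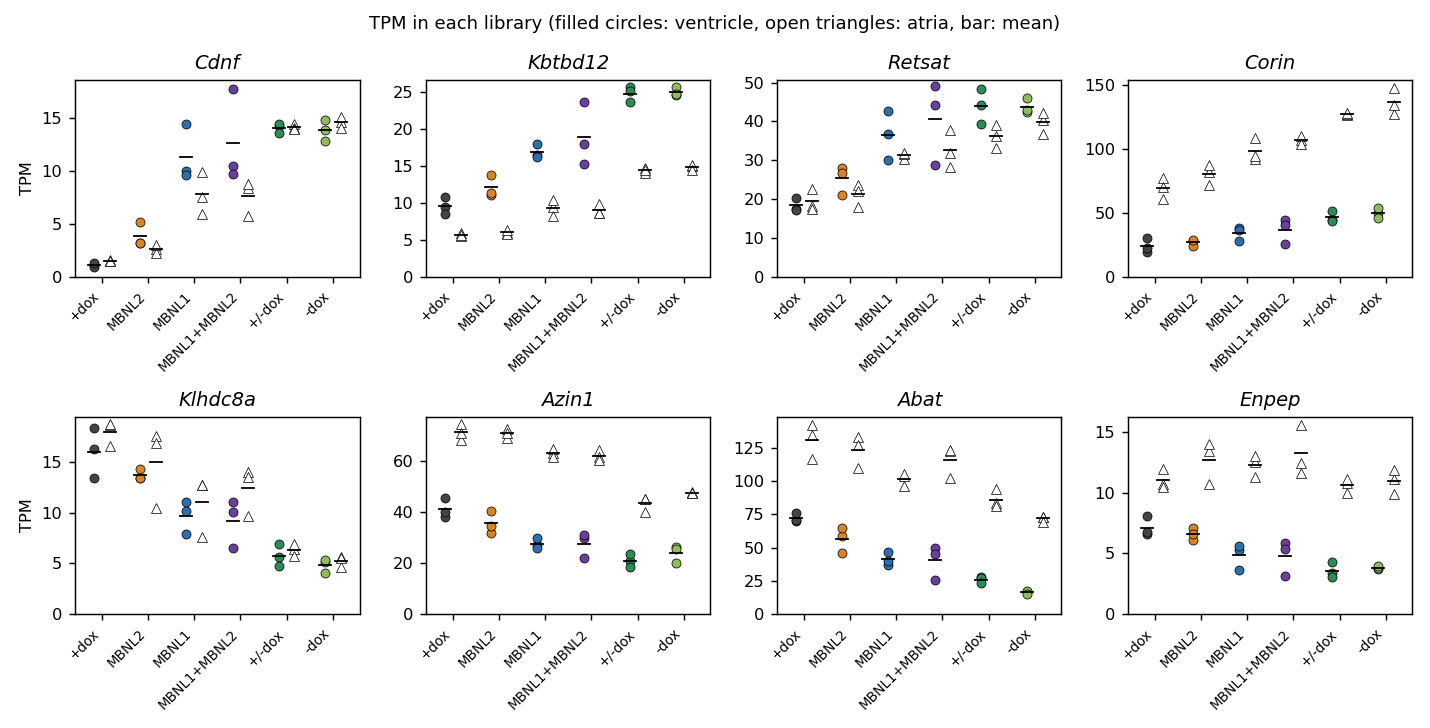
TPM in each library for 8 members, by cohort, in the ventricle (filled circles) and the atria (open triangles), with cohort means as bars. The upper genes were lower in +dox ventricles and the lower genes higher, and in the atria Enpep was at 10.5 to 11.9 TPM in +dox and 10.01 to 11.1 TPM in +/-dox mice. Klhdc8a, Azin1 and Abat did not meet the rule on CPM.

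The 62 members that were higher in +dox ventricles had medians of 67.5% in the MBNL1, 24.6% in the MBNL2 and 62.6% in the MBNL1+MBNL2 cohort. Abat, the transaminase that breaks down GABA, was at 70.1, 71.1 and 75.9 TPM in +dox, 46.0, 58.4 and 64.7 in MBNL2, 36.9, 39.7 and 46.6 in MBNL1 and 27.6, 26.8 and 23.1 TPM in +/-dox ventricles. Its MBNL1 and MBNL2 libraries overlapped, since MBNL2 replicate 1 was below MBNL1 replicate 3. Azin1, the antizyme inhibitor that favours polyamine synthesis, was at 45.5, 38.0 and 39.9 TPM in +dox, 40.4, 31.7 and 34.5 in MBNL2, 27.0, 26.1 and 29.8 in MBNL1 and 20.9, 18.4 and 23.7 TPM in +/-dox ventricles. Here MBNL2 and MBNL1 mice were apart, MBNL2 and +dox mice were not, and the MBNL1 percentage was 59.0% (57.4% without replicate 1). On CPM, Abat (58.5% in MBNL1 and 35.4% in MBNL2 mice) and Azin1 (63.8% and 37.5%) fell short of the rule's 30 points.

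Klhdc8a, a kelch domain gene, was at 18.4, 16.3 and 13.5 TPM in +dox and overlapped with MBNL2 mice at 13.4, 14.4 and 13.4 TPM, while MBNL1 mice were lower than both, at 7.91, 11.1 and 10.2 TPM. Enpep encodes aminopeptidase A, which cleaves angiotensin II. It was at 6.58, 8.05 and 6.75 TPM in +dox, 7.12, 6.11 and 6.56 in MBNL2, and 3.6, 5.3 and 5.58 TPM in MBNL1 ventricles, and its MBNL1 percentage of 58.6% became 39.4% without replicate 1. Impa1, the inositol monophosphatase, stood at 72.6% in MBNL1 (54.9% without replicate 1) and at 26.2% in MBNL2 mice. Lgi1, a secreted protein of the synapse, was at 16.96, 13.5 and 13.8 TPM in +dox and 8.59, 9.09 and 8.46 TPM in MBNL1 ventricles, with MBNL2 libraries reaching into both ranges at 9.03, 14.8 and 11.4 TPM. Enpep met the rule on CPM too, while Klhdc8a, Impa1 and Lgi1 did not.

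Txndc12, a thioredoxin-like protein of the endoplasmic reticulum, was at 28.2, 24.5 and 24.6 TPM in +dox, 23.2, 19.9 and 22.04 in MBNL2, 16.98, 16.6 and 19.7 in MBNL1 and 15.2, 14.7 and 16.2 TPM in +/-dox ventricles. Its +dox, MBNL2 and MBNL1 cohorts did not overlap, and its atrial difference between +/-dox and +dox mice (log2 fold change -0.33, SE 0.08, edgeR adjusted p = 0.00332) was below the limit on size. Txndc12 did not meet the rule on CPM, where MBNL2 mice stood at 52.7%. Ubtd1, a ubiquitin domain protein, stood at 26.7% in MBNL1 ventricles, 17.5% without replicate 1, and at -10.7% in MBNL2 ventricles. Pirt, a regulator of the heat-sensing channel TRPV1, and Sp3os stood at 51.8% and 54.2% in MBNL1 and at 18.6% and 21.2% in MBNL2 mice. For Tex30 the values were 74.9% and 41.0%. The lincRNA Gm13943 had the most negative D, -1.96, and stood at 77.7% in MBNL1 mice. MBNL1 replicate 1 was listed at 0 for it, beside 6.27 and 4.52 TPM in the others, and without that library it stood at 32.5%. For the processed pseudogene Gm11451, MBNL1 replicate 1 was at 1.81 TPM beside 6.71 and 6.2, and the percentage was 112% with it and 55.9% without it. On CPM, none of Ubtd1, Pirt, Sp3os, Tex30, Gm13943 and Gm11451 met the rule.

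Of the 75 members, 38 had no overlap of TPM between MBNL1 and MBNL2 ventricles, against a background of 12.7% of 12345 genes, from which nothing is read since the rule used these values. No test of these ventricular cohorts is reported for the members. In the tests that follow, a call needs both a 1.5-fold difference or more and an adjusted p under 0.05 (Benjamini-Hochberg, quasi-likelihood test of edgeR over the 36 libraries).

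Values near each limit of the rule were as follows. Gm13943 and the potassium channel subunit Kcne1 were just inside the 30 points, at 30.03 and 30.04, and Hacd1 at 29.1 just outside. For the MBNL2 percentage, Hsbp1l1 (49.7%) and Gm6916 (49.0%) were inside and Gm22009 (50.2%) and Gins2 (50.8%) outside. For the MBNL1+MBNL2 percentage, Gabrg3 (50.1%) and Cyp4f16 (50.3%) were inside and Tmem183a (49.0%) and Gm50340 (48.5%) outside. By size of D, Vamp1 (0.591) and Amn1 (0.592) were inside and Sh3kbp1 (0.5798) and Casq2 (0.579) outside. By level, Clstn3 (1.03 TPM) and Adcy1 (1.32 TPM) were inside and Oip5 (0.887 TPM), the only gene that failed this limit alone, outside.

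Of 714 genes in 19 lists of heart functions, 7 are members, and none is in the 17 short lists of cell type markers. Over all genes at 1 TPM or more, 0.598% are members, so nothing is read from these counts. Cell cycle genes hold a pair, Ccnb2, a mitotic cyclin, and Cdc20, an activator of the anaphase promoting complex. Of the 19 listed cell cycle genes at 1 TPM or more, 14 passed the criteria on D, all higher in +dox, beside 5.21% of all genes at that level. The 12 others stood at 37.5% to 109% in MBNL1 and at 19.7% to 67.8% in MBNL2 mice. MBNL1 was farther in all of these except Mcm2 (62.7% and 66.3%), so a lead of MBNL1 was not particular to the members. Ccna2, for example, stood at 105% and 51.2%, just outside the limit on MBNL2. Cdc20 was at 3.34, 2.02 and 1.28 TPM in +dox, 1.52, 1.75 and 1.16 in MBNL2, 0.77, 1.48 and 0.76 in MBNL1 and 0.7, 0.87 and 1.24 TPM in +/-dox ventricles. Ccnb2 was listed at 0.01 TPM in MBNL1 replicate 1 and at 0.98 and 0.57 in the others, and its MBNL1 percentage was 117% with it and 74.5% without it.

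Of 45 ion channels and transporters at 1 TPM or more, 8 passed the criteria on D, 2 higher and 6 lower in +dox, and Kcne1 is the member. This partner of the slow delayed rectifier channel was at 2.07, 2.67 and 0.91 TPM in +dox, 1.36, 1.02 and 2 in MBNL2, 0.94, 0.64 and 1.29 in MBNL1 and 0.18, 0.15 and 0.68 TPM in +/-dox ventricles, with overlap among all cohorts on dox. Of 38 stress and chaperone genes 4 passed, among them Cdnf. Corin is the member among the 5 that passed of 39 adrenergic and G protein genes. Bmp7, a growth factor of the TGF-beta family, is the member among 7 of 66 growth factor genes, and stood at 41.0% in MBNL1 mice, 24.5% without replicate 1, and 2.51% in MBNL2 mice. Ifit2, an interferon-induced antiviral gene and the only one of 45 interferon genes that passed, stood at 54.5% and 6.70%, with MBNL2 libraries at 13.3, 11.6 and 6.62 TPM across the +dox range of 7.63 to 13.5 TPM.

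Summed markers of other cells differed between some of these cohorts. Fibroblast markers were at 1301 to 1442 TPM in +dox, 1509 to 1962 in MBNL1, 1782 to 2277 in MBNL2 and 1654 to 1844 TPM in +/-dox ventricles, and those of smooth muscle and pericytes at 258 to 299, 317 to 359, 345 to 378 and 356 to 395 TPM. Among these cohorts all +dox libraries were lowest in both lists, and MBNL1 and MBNL2 libraries overlapped. In -dox ventricles fibroblast markers were at 1269 to 1453 TPM, which overlapped +dox, and smooth muscle and pericyte markers at 355 to 398 TPM, which did not. In MBNL1+MBNL2 ventricles they were at 1714 to 1970 TPM, above +dox, and at 290 to 355 TPM, which overlapped +dox. MBNL1 and MBNL2 libraries did not overlap in neutrophil markers, at 0.15 to 1.9 and 2.61 to 6.74 TPM, in atrial markers, at 143 to 259 and 277 to 910 TPM, and in ventricular markers, at 24762 to 25311 and 22145 to 24250 TPM. Red blood cell markers were at 393 to 1243 TPM in +dox, 613 to 1337 in MBNL1, 369 to 1895 in MBNL2 and 2354 to 2933 TPM in +/-dox ventricles. Those of activated fibroblasts were at 95.3 to 134 TPM in +dox, 64.8 to 109 in MBNL1, 92.3 to 185 in MBNL2 and 63.7 to 79.2 TPM in +/-dox ventricles. Skeletal muscle markers were at 1026 to 1131 TPM in +dox and 1303 to 1554 TPM in +/-dox ventricles. In MBNL1 and MBNL2 ventricles they were at 1140 to 1625 and 1309 to 1560 TPM. Endothelial markers were at 705 to 785 TPM in +dox and 841 to 892 TPM in +/-dox ventricles. MBNL1 and MBNL2 ventricles overlapped +dox in these, at 696.5 to 865 and 684 to 848 TPM. The part of all these markers in the members' values was not tested, and in bulk tissue fewer cells of a type and less RNA per cell cannot be told apart.

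The atria, which the rule did not use, gave tests of the same contrasts in the same animals. Between +/-dox and +dox atria 28 of the 75 members were called, 37.3%, against a background of 3.99% of 19231 tested genes, and 31.5% of the 575 other tested genes that passed the ventricular criteria on D. All 28 had the ventricular direction. Of the 13 members lower in +dox ventricles, 10 rose in +/-dox atria against a background of 2.01%, and of the 62 higher, 18 fell against 1.98%. The log2 fold change toward the ventricular direction had a median of 0.55 over the members, 0.53 over the other 575 genes and 0.13 over the 19169 tested genes with a D. The share of members called was thus close to that of the genes they were chosen from.

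Against -dox in place of +/-dox atria, 26 members were called, 34.7%, against a background of 5.23% and 33.2% of the other 575 genes. The +dox libraries are shared with the comparison before. Ventricular direction was seen in 25 of the 26, 8 of them rises (background 2.83%) and 17 falls, and Ndrg4 had the opposite one. Falls over all genes were 2.4%.

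**Figure D5:**
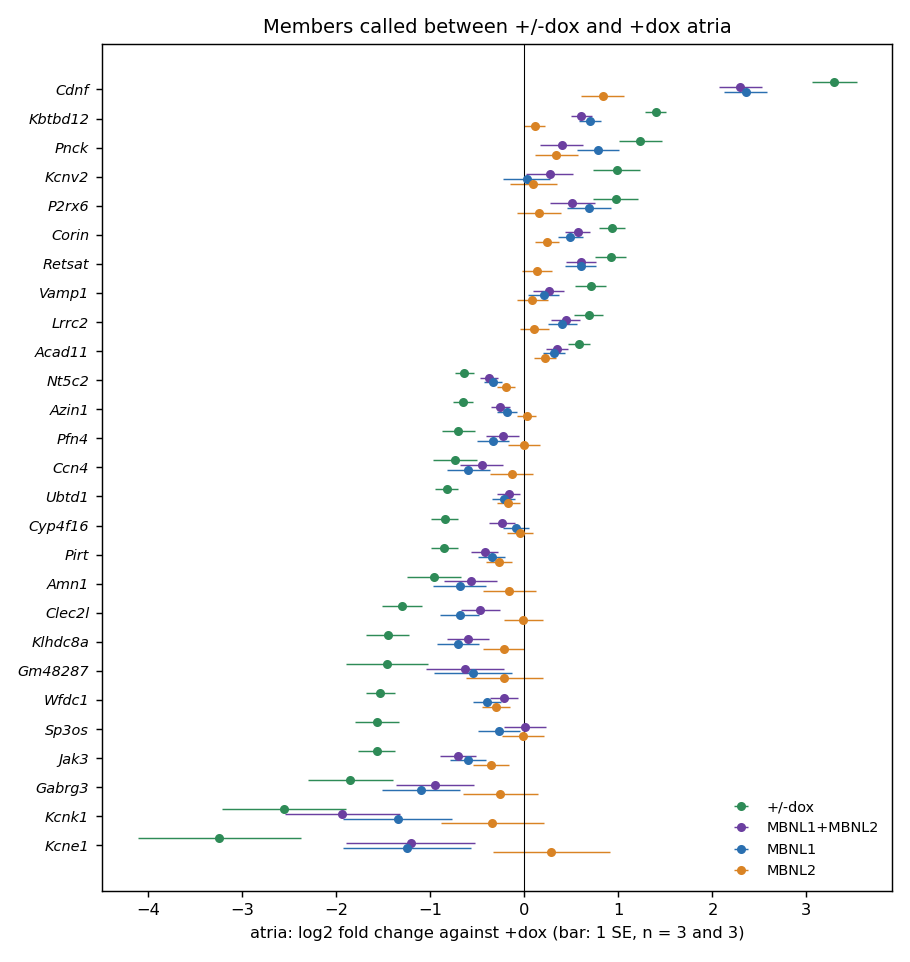
Atrial log2 fold changes against +dox mice, with 1 standard error from edgeR's quasi-likelihood fit, for 27 of the 28 members called between +/-dox and +dox atria (n = 3 and 3 libraries). MBNL1 (blue) and MBNL1+MBNL2 (purple) lie between 0 and +/-dox (green) for most genes, MBNL2 (orange) lies nearer 0, and all cohorts share the +dox libraries.

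Cdnf again had the largest rise. Its atrial levels were 1.47, 1.54 and 1.48 TPM in +dox, 2.64, 2.26 and 2.98 in MBNL2, 7.55, 5.93 and 9.94 in MBNL1, 8.36, 5.75 and 8.81 in MBNL1+MBNL2, 14.4, 14.04 and 13.9 in +/-dox and 14.6, 15.1 and 14.02 TPM in -dox mice. No library of +dox, MBNL2, MBNL1 or +/-dox mice overlapped another of these cohorts. The log2 fold change against +dox was 3.30 in +/-dox (SE 0.24, adjusted p = 1.82e-10), 2.35 in MBNL1 (SE 0.23, adjusted p = 8.97e-07), 2.30 in MBNL1+MBNL2 (SE 0.23, adjusted p = 9.80e-07) and 0.83 in MBNL2 mice (SE 0.23, adjusted p = 0.573), by the quasi-likelihood test of edgeR.

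The direct test of MBNL1 against MBNL2 atria called 1 member, Cdnf, which is also the only gene called of all those tested, a background of 0.0052%. It was higher in MBNL1 mice by 1.52 on the log2 scale (SE 0.22, edgeR adjusted p = 0.00443). The call was lost without MBNL1 replicate 3 (1.36, adjusted p = 0.0881), without MBNL2 replicate 1 (1.55, adjusted p = 0.0627) and without MBNL2 replicate 2 (1.44, adjusted p = 0.0710). Kbtbd12 followed, with a difference of 0.59 (SE 0.11, edgeR adjusted p = 0.0600). It was at 5.93, 5.49 and 5.6 TPM in +dox, 5.98, 5.76 and 6.32 in MBNL2, 9.48, 8.27 and 10.3 in MBNL1 and 14.7, 14.1 and 14.4 TPM in +/-dox atria, so that MBNL2 mice overlapped with +dox mice and MBNL1 mice were above both. Without adjustment 14 members had p under 0.05.

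By sign alone, 67 of the 75 members (89.3%) lay farther in the ventricular direction of repair in MBNL1 than in MBNL2 atria, against 440 of the other 575 genes (76.5%) and 61.2% of all tested genes. The median of this difference was 0.24 on the log2 scale in members, 0.15 in the other 575 genes and 0.04 in all tested genes. A lead of MBNL1 over MBNL2 was thus also seen in genes that were not members, and without the members that rest on ventricular MBNL1 replicate 1 the count was 37 of 40.

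In MBNL1 against +dox atria 2 members were called, Cdnf and Kbtbd12 (log2 fold change 0.70, SE 0.11, edgeR adjusted p = 0.00112), with a background of 0.13%. Without adjustment 26 members had p under 0.05. Retsat, at 18.2, 22.6 and 17.5 TPM in +dox, 23.7, 21.99 and 17.98 in MBNL2 and 30.3, 31.6 and 32.0 TPM in MBNL1 atria, had a log2 fold change of 0.60 (SE 0.16, edgeR adjusted p = 0.126) in MBNL1 mice and was called with DESeq2, as were Klhdc8a and Pnck, a calmodulin-dependent kinase. MBNL2 against +dox atria gave 0 members, with a background of 0.0052%, with edgeR and with DESeq2, and 2 members, Cdnf and Nt5c2, had an unadjusted p under 0.05 with edgeR.

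All MBNL1+MBNL2 libraries are of set B and from males by Xist, while +dox libraries are of both sets and both sexes. The comparison of these cohorts is therefore partly confounded with library set and sex. For MBNL1+MBNL2 against +dox atria the members called were also 2, Cdnf and Kbtbd12, with a background of 0.26%, and 24 had an unadjusted p under 0.05. Kbtbd12 was at 8.61, 8.6 and 9.81 TPM there, with a log2 fold change of 0.61 (SE 0.11, edgeR adjusted p = 0.00514). Its fold change was below 1.5 without +dox replicate 3 (0.55) and without MBNL1+MBNL2 replicate 3 (0.55, adjusted p = 0.0602). Corin had an adjusted p of 0.0343 in edgeR's test with a log2 fold change of 0.57, below the limit on size.

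Corin rose by 0.93 on the log2 scale in +/-dox atria (SE 0.13). Its TPM were 61.1, 77.5 and 70.7 in +dox, 82.4, 72.3 and 87.7 in MBNL2, 92.1, 94.7 and 109 in MBNL1 and 127, 128 and 128 in +/-dox atria, with all MBNL1 libraries above all MBNL2 libraries. Among the falls, Wfdc1, a secreted protein with a WAP domain, was at 25.2, 25.4 and 28.6 TPM in +dox and 8.75, 6.76 and 10.8 TPM in +/-dox atria. Jak3, a kinase of cytokine receptors, was at 11.2, 11.4 and 12.0 TPM in +dox, 8.03, 9.06 and 9.28 in MBNL2, 7.54, 7.32 and 8.22 in MBNL1 and 3.4, 2.94 and 4.87 TPM in +/-dox atria, where MBNL1 and MBNL2 mice overlapped. Clec2l, a lectin-like membrane protein, was at 24.2, 23.7 and 18.5 TPM in +dox, 19.7, 24.1 and 20.9 in MBNL2, 14.4, 15.4 and 11.7 in MBNL1 and 7.98, 9.74 and 8.09 TPM in +/-dox atria, and there MBNL1 mice were below all MBNL2 mice.

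In some genes that fell in +/-dox atria, MBNL1 atria were close to or overlapped +dox. Sp3os was at 16.7, 16.7 and 20.8 TPM in +dox, 16.3, 14.1 and 14.5 in MBNL1, 18.4, 16.9 and 18.8 in MBNL1+MBNL2 and 5.16, 5.26 and 6.68 TPM in +/-dox atria. Azin1 fell from 74.5, 68.3 and 71.1 TPM to 45.2, 40.1 and 45.03 TPM in +/-dox atria, while MBNL1 mice were at 63.2, 64.7 and 61.6 TPM. Its call was lost on size without +dox replicate 1 (log2 fold change -0.57). In these genes the ventricular MBNL1 percentages were 54.2% and 59.0%.

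Some members with a large ventricular D did not pass the test in the atria or were near 0 there. Enpep was at 10.7, 11.9 and 10.5 TPM in +dox and 10.8, 10.01 and 11.1 TPM in +/-dox atria, with a log2 fold change of -0.00 (SE 0.16, edgeR adjusted p = 0.994). Lgi1 stayed between 0.07 and 0.46 TPM and Bmp7 between 0.03 and 0.3 TPM in every atrial library. Kcnv2 rose by 0.98 (SE 0.25) in +/-dox atria, from 1.89, 2.74 and 2.27 to 5.44, 4.46 and 3.16 TPM, and lost its call without +dox replicate 1 (adjusted p = 0.0619 in edgeR's test) or +/-dox replicate 1 (adjusted p = 0.0629). MBNL1 atria were at 1.71, 2.47 and 2.92 TPM for it, within the +dox range or close to it, in contrast to the ventricle, and the difference between tissues was not tested. Kcne1, called on counts in +/-dox atria, was at 0.49 TPM or less in +dox and at 0.11 TPM or less in +/-dox mice, with overlap on TPM and no call without +/-dox replicate 3 (edgeR adjusted p = 0.0636).

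With the whole rule applied to the atrial libraries, 629 genes passed the criteria on D, 29 of them members, all with the same sign as in the ventricle. That is 38.7% of the members, beside 30.6% of the other genes that passed in the ventricle. In these 29 the median atrial percentage was 45.8% in MBNL1, 18.04% in MBNL2, 37.7% in MBNL1+MBNL2 and 103% in -dox mice, and MBNL1 was farther than MBNL2 in 27. The 177 other genes that passed in both tissues stood at 34.3%, 18.02%, 30.6% and 98.2%, with MBNL1 farther in 134. All limits were met in the atria by 59 genes, 7 of them members (11.9% of the 59 and 9.33% of the 75): Amn1, Ccn4, Cdnf, Corin, Lrrc2, P2rx6 and Retsat.

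The rule did not use the ventricular -dox libraries, but it did use the +/-dox libraries with which they were compared, so this test is not independent of how the members were chosen. The test called 0 members with edgeR, with a background of 0.0312%, and 8 had an unadjusted p under 0.05, while DESeq2 called 1, Abat. Abat was at 16.5, 17.3 and 15.4 TPM in -dox and 27.6, 26.8 and 23.1 TPM in +/-dox ventricles, a log2 difference of -0.63 (SE 0.16, edgeR adjusted p = 0.208), and Acad11 was at 107, 87.4 and 79.4 TPM in -dox and 77.3, 66.7 and 63.5 TPM in +/-dox ventricles (0.44, SE 0.12, edgeR adjusted p = 0.224). For both, the -dox mean lay beyond +/-dox as seen from +dox, and the libraries of the cohorts did not overlap.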

How the data were processed

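RNA of the left ventricle and the atria of 3 CUG960 mice per cohort was sequenced as paired 150 cycle reads from stranded mRNA libraries. Per the submitters' processing notes and methods, STAR 2.7.10b (aligner) and RSEM 1.3.1 (quantification) were used with mm10. Deposited were, for each gene symbol, RSEM's expected count, unscaled, and its TPM, which also takes account of transcript length. Positions came from GENCODE M21 on GRCm38.

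Members were found on log2(TPM + 1) in Python 3.11.15 with pandas 2.3.3. Rounded expected counts of all 36 libraries were tested with edgeR 4.0.16 (quasi-likelihood, TMM, filterByExpr, which kept 19231 genes and all 75 members), with 1 mean for each of 12 groups, in R 4.3.3. In data simulated for MBNL1 against MBNL2 atria (18843 genes), 30% of 50 genes changed 1.5-fold, 78% changed 2-fold and 96% changed 4-fold were called. DESeq2 1.42.0 and the other alternatives are given at the end. No 2 replicates agreed within sampling noise (chi-square per degree of freedom at least 9.61 over 36 pairs). P-values rest on an estimate of spread within groups that all 12 groups share, over both tissues, and not on the 3 animals of a cohort alone. The ventricle and atria of an animal entered the fit as separate libraries.

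The members and the lists were chosen with earlier results of these data known. Named are the 12 largest D in each direction at 5 TPM or more, members of the lists, up to 10 members called per atrial comparison, the genes nearest each limit and, chosen after their values were seen, Txndc12, Iqcc, Pnck, Ccn4, P2rx6, Mfsd4b3-ps and Ndrg4. Splicing and protein data were not analysed here. Some items that the rule would name are not reported here.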

Additional observations from a re-analysis of the deposited data

Results flagged for a closer look

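Ndrg4, of the N-myc downstream regulated family, lay on opposite sides of +dox mice in the chambers of -dox mice, and in each chamber no library of one cohort overlapped the other. In the ventricle it was at 32.1, 27.9 and 23.6 TPM in +dox and at 16.4, 19.7 and 21.7 TPM in -dox mice. In the atria it was at 70.7, 63.7 and 60.7 TPM in +dox and at 102, 98.3 and 77.6 TPM in -dox mice, a log2 fold change of 0.63 (SE 0.17, edgeR adjusted p = 0.0106). The atrial call was lost without +dox replicate 3 (0.54, adjusted p = 0.0579), without -dox replicate 1 (0.53, adjusted p = 0.0622) and without -dox replicate 2 (0.57, adjusted p = 0.0505). The difference between the chambers was not tested. Atria of +/-dox mice were at 60.35, 66.3 and 76.5 TPM, which overlapped +dox atria. MBNL1 and MBNL2 ventricles were at 14.8, 16.9 and 16.4 TPM and at 27.8, 28.2 and 37.7 TPM.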

How the results depend on the processing

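The number of members was 131 with a pseudocount of 0.1, 98 with 0.5, 45 with a level of at least 5 TPM, 281 within library set A with no MBNL1+MBNL2 limit, 41 to 107 when each library was left out, and 26 without ventricular MBNL1 replicate 1 and MBNL1+MBNL2 replicate 1, an alternative chosen after seeing the data. Membership turned over more than the counts show. Of the 75, 31 were among the 72 genes found with the median over libraries, 33 among the 71 found with -dox in place of +/-dox for D, 19 among the 85 found within set B, 50 among the 281 within set A, and 70 with either pseudocount. Of the members found without ventricular MBNL1 replicate 1, 17 were called in +/-dox and 15 in -dox atria, and of those found without MBNL1+MBNL2 replicate 1, 10 and 9, also chosen after seeing the data.

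In MBNL1 against +dox atria, 6 members were called in the fit of the 18 atrial libraries alone and 5 with DESeq2. In MBNL1+MBNL2 against +dox atria, 4 were called in that fit, with DESeq2, with library set as a term and with the replicate number as a block, and 1 to 2 when a library was left out. In MBNL1 against MBNL2 atria, 2 (Cdnf and Kbtbd12) were called with no filter on low counts, with library set as a term and with the replicate number as a block, and 0 to 1 when a library was left out. DESeq2 called 1 between ventricular -dox and +/-dox mice. Leaving out a library gave 21 to 31 members in +/-dox and 21 to 28 in -dox atria. In none of the comparisons did every same-numbered pair correlate above 0.1 (range -0.11 to 0.29 over 21 pairs), and the main fit did not pair the samples. Replicate 3 pairs, however, correlated at 0.19 to 0.29 in the comparisons without MBNL1+MBNL2 mice, where replicate 3 is the library of set B with Xist. Replicate number thus carried some shared structure. With the replicate number as a block, 28 members were called in +/-dox, 28 in -dox and 3 in MBNL1 against +dox atria.

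Of the 59 called member results, 41 kept their call in every setting, 18 lost it in some, and 0 reversed. Over all genes, calls without a limit on fold change were 2426 in place of 767 in +/-dox, 3060 in place of 1005 in -dox, 67 in place of 25 in MBNL1 and 132 in place of 50 in MBNL1+MBNL2 atria, and DESeq2 gave 55 and 102 for the latter pair, 9 in place of 1 for MBNL2 against +dox, 6 in place of 1 for MBNL1 against MBNL2 atria and 23 in place of 6 for ventricular -dox against +/-dox mice. Library set as a term gave 149 genes in MBNL1+MBNL2 atria. The causes of these differences were not tested. In the simulation 30% of genes changed 1.5-fold were called. A call needs an estimated difference of at least 1.5-fold, so genes of that size often miss it whatever the number of libraries. That share therefore does not show what 3 libraries a cohort can detect. A missing call between MBNL1 and MBNL2 atria does not show that a small difference was absent.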
